A study of Mus musculus with 3 samples.

Results

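Regulatory T cells are the CD4 T cells that hold immune responses in check, and Foxp3 is the transcription factor that sets their programme. They take up interleukin 2 through the high-affinity receptor chain CD25 (Il2ra), withhold costimulation from other T cells through CTLA-4, and carry OX40 (Tnfrsf4) and GITR (Tnfrsf18), costimulatory receptors of the TNF receptor family. In lung and other tissues some of them carry the interleukin 33 receptor ST2 (Il1rl1), the integrin CD103 (Itgae) and the killer lectin receptor KLRG1, while others keep genes of resting T cells, such as Ccr7, which guides T cells into lymph nodes.

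The Foxp3-positive regulatory T cells described here were 100 of the 12458 mouse lung cells that passed the filters (at least 1000 UMIs, at least 500 detected genes and at most 10% mitochondrial UMIs). A UMI is a molecular tag that marks 1 captured transcript. A cell was a member when it held at least 2 UMIs of Cd3d, Cd3e and Cd3g together, at least 1 UMI of Foxp3, none of Cd8a or Cd8b1, and at most 1 of Cd79a, Epcam, Cdh5 and Marco together. The members numbered 26 in the PPARg-/- tumour library, 58 in the WT tumour library and 16 in the WT healthy library, of 5137, 4374 and 2947 cells. Since the members were chosen by their UMIs of Foxp3 and of the other genes of this rule, the levels of these genes are a description with no test. They were set against 869 Foxp3-zero CD4 T cells, which met the same T cell limits and held at least 1 Cd4 UMI and no Foxp3 UMI (304, 289 and 276 in the same order of libraries).

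All mice carried Ccsp-rtTA, which drives the doxycycline-dependent activator from a promoter of airway secretory cells, together with a TetO transgene for a mutant, tumour-driving EGFR, and the labels give chow with 625 ppm doxycycline and an age of 16 to 20 weeks for all 3 groups. They do not say how the WT healthy mice, with the same transgenes, were free of tumours, so what sets WT tumour apart from WT healthy is known by the group names only. PPARg-/- tumour mice had floxed Pparg alleles and Csf1rCre, a Cre driver of the monocyte and macrophage lineage; WT tumour mice had the floxed alleles without Cre; WT healthy mice had neither, so the floxed alleles and the tumour cannot be told apart between the WT groups. Each group was 1 library of cells pooled from 3 mice and mixed after sorting from alveolar macrophage, CD11b macrophage, CD3 T cell and epithelial gates. With 1 library a group no test between groups was possible. The study asked how the lung cells of EGFR-driven tumours differ when macrophages lack Pparg. Members held 8 Pparg UMIs in all, in 3 of 100 cells, and whether Csf1rCre recombined the locus in T cells was not tested.

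The libraries held 44548318, 46148658 and 30454790 UMIs, and the members' median depth was 2490 UMIs (PPARg-/- tumour), 2871 (WT tumour) and 3778 (WT healthy), against 2688, 3051 and 3774 in the Foxp3-zero cells. Pairs of libraries shared 4 to 6 cell barcodes, and no barcode was a member in both libraries of a pair. Xist was read in 12 of 16 members of WT healthy and in 0 of 84 members of the tumour libraries. Ddx3y was read in 4 of 26 PPARg-/- tumour, 15 of 58 WT tumour and 0 of 16 WT healthy members. Sex and group therefore cannot be told apart between WT healthy and either tumour library. Single barcodes weighed heavily in the sums. The deepest member gave 13.8% of its class's UMIs in PPARg-/- tumour (11036 UMIs), 14.8% in WT tumour (36265) and 32.1% in WT healthy (31571), and 1, 4 and 2 members exceeded 10000 UMIs. Results that turn on these 7 cells are given with and without them.

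The label held against the markers. Of the 100 members, 96 had a UMI of at least 1 of Ikzf2, Il2ra, Tnfrsf4 and Ctla4, none of which the rule used, and 16 had all 4. Foxp3 (ENSMUSG00000039521) lies on chromosome X (GRCm38, 7573644 to 7595245, plus strand) and summed to 576 CPM (UMIs of the gene per 1000000 summed UMIs of the class) in PPARg-/- tumour members, 438 in WT tumour members and 305 in WT healthy members. By the rule it was 0 in the Foxp3-zero cells. Foxp3 was counted once in 55 members and more often in 45. Those with exactly 1 Foxp3 UMI, just inside the limit, had 1597 CPM of Ikzf2 and 427 CPM of Ctla4; those with more had 891 and 665 CPM. The 2214 T cells just outside it, with no Foxp3 UMI whether or not Cd4 was read, had 78.3 and 41.2 CPM. At the Cd3 limit, the 7 members with exactly 2 Cd3 UMIs had 921 CPM of Ikzf2, and 8 barcodes left out with Foxp3 and a single Cd3 UMI had 1552 CPM. Cd4 itself was read in 37 of 100 members (8 of 26, 26 of 58 and 3 of 16).

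Ikzf2 encodes Helios, a transcription factor of thymus-derived regulatory T cells (ENSMUSG00000025997, chromosome 1, 69531214 to 69687245, minus strand). It summed to 1214 CPM in PPARg-/- tumour members, 1470.0 in WT tumour members and 569.8 in WT healthy members, against 59.7, 125 and 40.02 CPM in the Foxp3-zero cells. Every library's members lay above every library's Foxp3-zero cells. The fitted log2 ratio was 3.62 ± 0.23 (SE; adjusted p = 2.69e-10, edgeR quasi-likelihood test over 3 libraries with the library as block). Ikzf2 was read in 18 of 26, 50 of 58 and 11 of 16 members, and no cell held more than 4.88% of the Ikzf2 UMIs of all members.

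Il2ra encodes CD25, the alpha chain of the interleukin 2 receptor (ENSMUSG00000026770, chromosome 2, 11642807 to 11693193, plus strand). Members had 263, 274 and 204 CPM (PPARg-/- tumour, WT tumour, WT healthy), and Foxp3-zero cells had 6.28, 30.8 and 12.4 CPM. The lowest member sum was above the highest Foxp3-zero sum, with a log2 ratio of 3.65 ± 0.36 (edgeR adjusted p = 7.68e-07). Ctla4, which competes with CD28 for its ligands (ENSMUSG00000026011, chromosome 1, 60887000 to 60915832, plus strand), had 488, 545 and 641 CPM in members and 56.5, 42.7 and 24.9 CPM in Foxp3-zero cells. Its log2 ratio was 3.52 ± 0.28 (edgeR adjusted p = 1.43e-08), although 1 WT healthy cell held 58.7% of the Ctla4 UMIs of that library's members; without cells over 10000 UMIs the ratio was 3.35. Tnfrsf4 (ENSMUSG00000029075, chromosome 4, 156013843 to 156016612, plus strand) had 188, 499.6 and 132 CPM in members, against 14.7, 50.7 and 16.9 CPM. Its log2 ratio was 3.03 ± 0.31 (edgeR adjusted p = 1.07e-06), with 31.3% of its UMIs in 1 cell and a ratio of 3.28 without cells over 10000 UMIs.

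**Figure D1:**
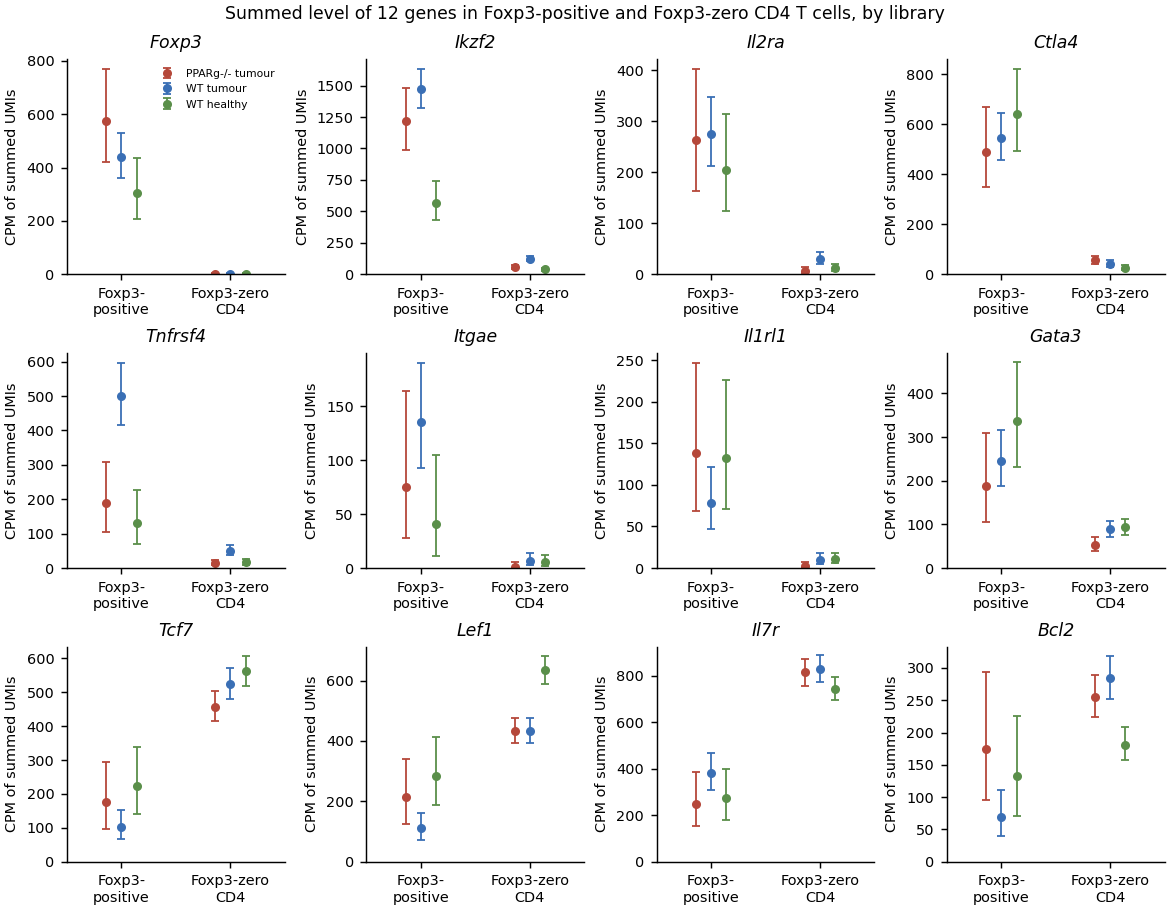
Level of 12 genes as CPM of summed UMIs, in Foxp3-positive cells (left in each panel) and Foxp3-zero CD4 T cells (right); points are the 3 libraries and bars are exact 95% Poisson intervals, which cover counting error only. Ikzf2, Il2ra, Ctla4, Tnfrsf4, Itgae, Il1rl1 and Gata3 lay higher in the members of every library, and Tcf7, Lef1, Il7r and Bcl2 lay lower in the members of each library than in its own Foxp3-zero cells.

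Of 7095 genes tested, 235 were called at a false discovery rate of 0.05 (3.31%), 100 higher (1.41%) and 135 lower (1.90%) in Foxp3-positive cells, and 850 had an unadjusted p under 0.05. DESeq2 called 58 genes. Without cells over 10000 UMIs 303 of 6129 were called (4.94%), 127 higher (2.07%) and 176 lower (2.87%), and with each cell thinned to 1000 UMIs 147 of 3208 (4.58%), 37 higher (1.15%) and 110 lower (3.43%). Without the WT healthy library 81 genes were called, without WT tumour 161 and without PPARg-/- tumour 159. In simulated sums of the same depth the test recovered 60% of genes changed 4-fold and 5% of those changed 2-fold, so a gene that was not called may still differ. The genes of the rule were not tested. Among the 100 higher calls, 34 had over 25% of their UMIs in 1 member.

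**Figure D2:**
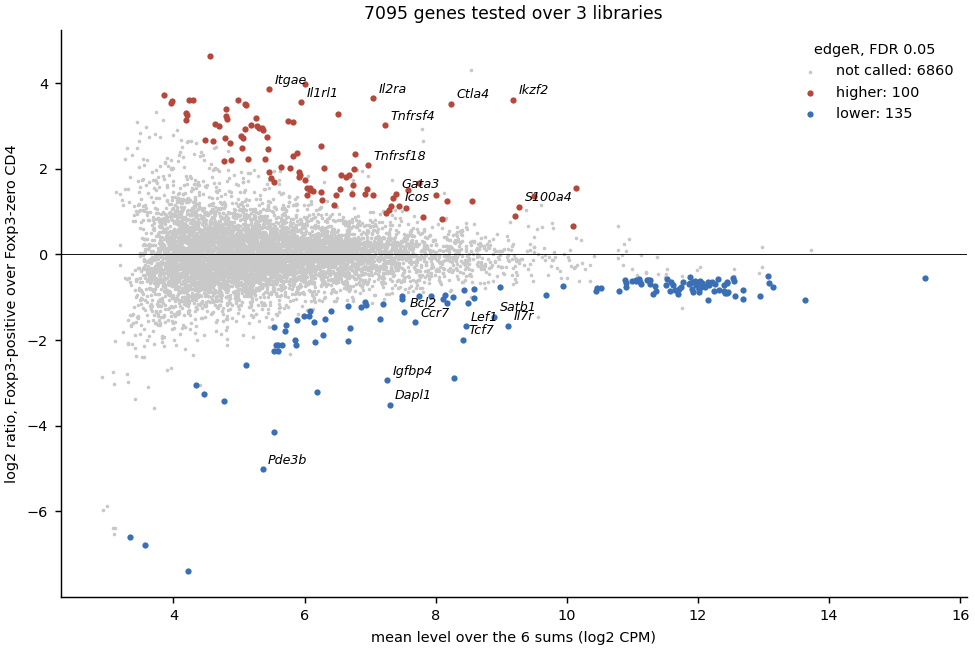
Each point is 1 of 7095 genes: the x axis is the mean level over the 6 sums (log2 CPM) and the y axis the log2 ratio of Foxp3-positive over Foxp3-zero CD4 T cells. The 100 genes called higher include Ikzf2, Il2ra, Ctla4 and Tnfrsf4, the 135 called lower include Tcf7 and Il7r, and the dense group of lower calls at high levels is mostly ribosomal protein genes.

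Promoter windows from RefSeq (GRCm38.p6, 250 bases before to 50 after a start) were found for 72 of the 100 genes called higher, 83 windows in all. They were searched on both strands for the forkhead letters GTAAACA, the core that Foxp3 and its relatives bind, and for TTCNNNGAA, the core of STAT factors that act downstream of the interleukin 2 receptor. The forkhead letters were in 4.82% of the windows of genes called higher, 2.13% of those called lower, 2.74% of those tested and 3.65% of all 32851 windows. The STAT letters were in 6.02%, 4.26%, 6.59% and 8.30% of the same sets. Both windows printed here were picked because they hold a match, for Foxp3, which defines these cells, and for Il1rl1, which is among the genes with the largest log2 ratios. The Foxp3 window has a STAT match 139 bases before the start, and the Il1rl1 window a forkhead match 117 bases before the start. A second window of each gene, for Il1rl1 the one at the gene's annotated start, held neither motif, and the windows of Il2ra, Ctla4 and Tnfrsf4 held neither. Capitals mark the match, which is one of letters only.
Foxp3, chrX:7580233-7580532, plus strand: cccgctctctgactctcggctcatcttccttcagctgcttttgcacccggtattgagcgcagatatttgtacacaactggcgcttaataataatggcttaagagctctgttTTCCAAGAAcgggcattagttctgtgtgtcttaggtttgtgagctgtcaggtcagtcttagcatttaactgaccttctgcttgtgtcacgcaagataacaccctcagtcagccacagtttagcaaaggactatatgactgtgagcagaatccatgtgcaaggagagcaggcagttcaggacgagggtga
Il1rl1, chr1:40439379-40439678, plus strand: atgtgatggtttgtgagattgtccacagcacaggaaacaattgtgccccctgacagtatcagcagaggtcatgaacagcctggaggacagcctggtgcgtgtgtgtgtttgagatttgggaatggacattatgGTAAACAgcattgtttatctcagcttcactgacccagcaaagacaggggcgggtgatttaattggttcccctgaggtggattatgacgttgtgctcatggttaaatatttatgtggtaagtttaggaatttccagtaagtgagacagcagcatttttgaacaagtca

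In the interleukin 2 receptor and STAT5 list, 2 of 13 genes tested were higher and 2 lower (median log2 ratio −0.22, against −0.04 over all genes tested). The higher ones were Il2ra and Il2rb, the shared beta chain of the interleukin 2 and 15 receptors, which had 213, 172 and 193 CPM in members and 67.0, 66.6 and 32.0 CPM in Foxp3-zero cells (log2 1.54, edgeR adjusted p = 0.00355). The common gamma chain Il2rg was not called (log2 −0.34). The lower ones were Il7r, the interleukin 7 receptor chain that memory and naive T cells use for survival, and Bcl2, which protects cells from apoptosis. Il7r had 250.4, 381 and 275 CPM in members, against 815, 831 and 744 CPM (log2 −1.66, edgeR adjusted p = 4.08e-05), with no overlap between the classes. Bcl2 had 175, 69.6 and 132 CPM, against 255, 284 and 181 CPM (log2 −1.35, edgeR adjusted p = 0.0106).

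Among costimulatory receptors, 4 of 10 tested were higher and 1 lower (median 0.15, 0.56 with no filter on low counts and 0.61 when thinned). Besides Tnfrsf4 these were Tnfrsf18, Icos and Tnfrsf1b. GITR (Tnfrsf18) had 87.6, 287 and 254 CPM in members and 37.7, 60.6 and 24.9 CPM in Foxp3-zero cells (log2 2.09 ± 0.33, edgeR adjusted p = 0.000442). Icos, a CD28 relative, had 313, 303 and 142 CPM, against 82.7, 94.4 and 108 CPM (log2 1.12, edgeR adjusted p = 0.0288), so the WT healthy classes were close. Tnfrsf1b, the second TNF receptor, had a log2 ratio of 1.39 (edgeR adjusted p = 0.0143); DESeq2 gave adjusted p values of 0.334 for Icos and 0.214 for Tnfrsf1b. Cd40lg, the CD40 ligand of helper T cells, was lower, with 8 UMIs in all members (log2 −2.25, edgeR adjusted p = 0.0047; 0.155 in DESeq2). Cd28 and Cd27 were not called (log2 −0.40 and −0.14).

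Of 8 inhibitory receptor genes tested, 3 were higher and none lower (median 1.00). The median was 0.13 with Cd4 asked of both classes, 0.17 at 5% mitochondrial UMIs and 0.24 when thinned. These were Ctla4, Klrg1 and Pdcd1, which encodes PD-1. Klrg1 had 62.6, 61.4 and 30.5 CPM in members and 2.09, 5.96 and 4.45 CPM in Foxp3-zero cells (log2 3.24 ± 0.70, edgeR adjusted p = 0.00703). Pdcd1 rested on the WT tumour library, where members had 28 of its 31 UMIs (25.04, 115 and 10.2 CPM, against 7.33, 16.9 and 1.78 CPM; log2 2.22, edgeR adjusted p = 0.0426, 0.334 in DESeq2). Of 6 suppressive effectors tested, 2 were higher and 1 lower (median 1.12). Nt5e, the ectoenzyme CD73 that makes adenosine, had a log2 ratio of 1.61 (edgeR adjusted p = 0.00417; 0.0819 in DESeq2). Fgl2, a secreted fibrinogen-like suppressive factor, had 75.1, 287 and 40.7 CPM in members and 22.0, 16.9 and 15.1 CPM in Foxp3-zero cells (log2 2.53, edgeR adjusted p = 0.00395). Pde3b, a cyclic nucleotide phosphodiesterase whose gene Foxp3 is known to repress, was the lower one: it had 1 UMI in all 100 members, against 64.9, 58.6 and 110.3 CPM in Foxp3-zero cells (edgeR adjusted p = 0.000307). Tgfb1 was not called (log2 0.09), nor was Entpd1, which encodes CD39 (log2 1.10).

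Of 23 transcription factors and related markers of regulatory T cells, 5 were higher and 1 lower (median 0.64, and 0.086 with Cd4 asked of both classes). Nrp1, neuropilin 1, a surface marker of thymus-derived regulatory T cells in mice, had 200.3, 217 and 142 CPM in members and 33.5, 42.7 and 16.0 CPM in Foxp3-zero cells (log2 2.35 ± 0.32, edgeR adjusted p = 7.75e-05). Gata3, a factor of type 2 immunity that tissue regulatory T cells share, had 188, 246 and 336 CPM, against 53.4, 88.5 and 93.4 CPM (log2 1.42, edgeR adjusted p = 0.00224). For both genes the classes did not overlap. Ikzf4, the Helios relative Eos, had a log2 ratio of 2.75 (edgeR adjusted p = 0.00706), and Rora, a nuclear receptor of tissue lymphocytes, 1.33 (edgeR adjusted p = 0.00517; 0.0884 in DESeq2). Satb1, a chromatin organiser that Foxp3 holds down, was lower: 288, 127 and 509 CPM in members and 466, 456 and 1000.4 CPM in Foxp3-zero cells (log2 −1.45, edgeR adjusted p = 0.000567). Maf stood just outside the threshold (log2 1.43, edgeR adjusted p = 0.0547).

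The list of tissue and effector regulatory T cell genes had 7 of 20 tested higher and none lower (median 1.14). Itgae (chromosome 11, 73090583 to 73147446, plus strand), the CD103 chain that binds epithelial E-cadherin, had 75.1, 135 and 40.7 CPM in members and 1.05, 6.96 and 5.34 CPM in Foxp3-zero cells. The log2 ratio was 3.86 ± 0.59 (edgeR adjusted p = 0.000307); with members limited to 2 or more Foxp3 UMIs it was 2.79 and missed the threshold (edgeR adjusted p = 0.0607). Il1rl1 (chromosome 1, 40429570 to 40465415, plus strand) had 138, 77.8 and 132 CPM, against 2.09, 9.94 and 10.7 CPM. Its log2 ratio was 3.56 ± 0.52 (edgeR adjusted p = 0.000217), with no overlap between the classes. Klrg1, Gata3, Rora, Tnfrsf18 and S100a4 made up the rest of the 7. Gata3 and Il1rl1 also mark group 2 innate lymphoid cells. The other markers of those cells in the list, Il13, Il5 and Calca, had no UMI in any member. Il5 and Calca had none in the Foxp3-zero cells either, and Il13 had 6 there, all in WT tumour, so these zeros do not tell the cell types apart.

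Genes of resting and naive T cells ran the other way: 10 of 14 tested were lower and none higher (median −1.52). Tcf7, encoding TCF1, a factor of naive and stem-like T cells, had 175, 102 and 224 CPM in members and 458, 525 and 562 CPM in Foxp3-zero cells (log2 −2.00 ± 0.26, edgeR adjusted p = 4.08e-05). Its partner Lef1 had 213, 111 and 285 CPM, against 432, 432 and 634 CPM (log2 −1.67, edgeR adjusted p = 0.000217). The largest falls were in Dapl1 (log2 −3.52 ± 0.37, edgeR adjusted p = 1.39e-06), a marker of naive T cells, and Igfbp4 (log2 −2.94, edgeR adjusted p = 0.00381). Ccr7 had a log2 ratio of −1.58 (edgeR adjusted p = 0.000737), and Foxp1 and Ly6c1 were lower as well, although not in DESeq2 (adjusted p = 0.302 and 0.334). Klf2 and S1pr1, which keep T cells in circulation, were not called (log2 −0.64 and −0.22), and their values differed between libraries, as given further on.

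**Figure D3:**
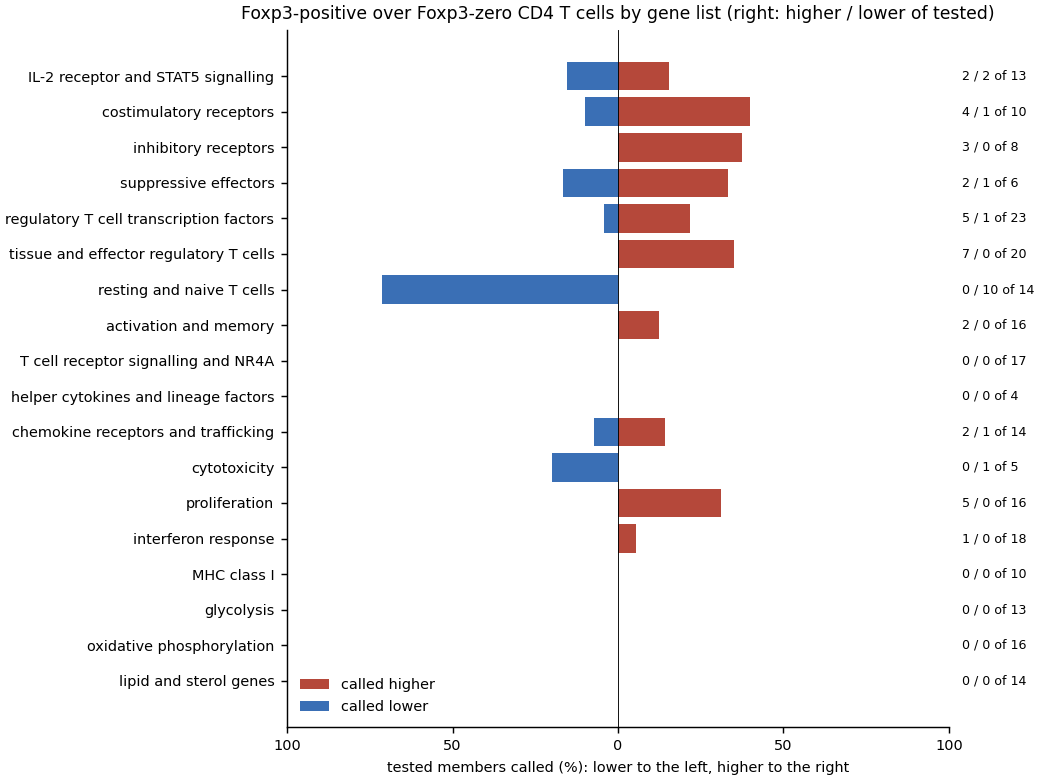
For 18 gene lists, the bars give the share of tested members called higher (right) and lower (left) in Foxp3-positive over Foxp3-zero CD4 T cells at a false discovery rate of 0.05, with the counts at the right. Over all genes the shares were 1.41% higher and 1.90% lower; 10 of 14 genes of resting T cells were lower and 7 of 20 of tissue regulatory T cells higher.

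Of 14 chemokine receptor and trafficking genes, 2 were higher (Itgae and Ccr6) and 1 lower (Ccr7). Ccl5, a chemokine of effector and cytotoxic T cells and the single call among 5 cytotoxicity genes (median −2.33), had 75.1, 168 and 10.2 CPM in members, against 788, 679 and 153 CPM (log2 −2.88 ± 0.30, edgeR adjusted p = 1.47e-06). Of 16 activation and memory genes 2 were higher, S100a4 and S100a10, both of the S100 family. Of 18 interferon response genes only Ifi27l2a was called (log2 0.66, edgeR adjusted p = 0.0393). No gene was called by edgeR in 17 T cell receptor signalling, 4 helper cytokine and lineage, 10 MHC class I or 13 glycolysis genes. Nor was any in 16 oxidative phosphorylation, 14 lipid and sterol or 16 dissociation stress genes. Without cells over 10000 UMIs 2 of the T cell receptor signalling genes, Dusp1 and Junb, were called higher (log2 1.79 and 0.82). In that setting 1 of 13 glycolysis and 2 of 15 dissociation stress genes were called higher as well, and Junb belongs to the dissociation stress list too. When thinned, 2 of 14 T cell receptor signalling and 1 of 14 dissociation stress genes were called higher. Ribosomal protein genes, a list made after their values were seen, were lower in 66 of 80 tested (median −0.69).

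Among genes outside these lists, the largest increases with no cell above 25% of the UMIs were in Bicd1, Hmgn3, Neb, Sdc4, Spock2, Ttn and Dusp4. Bicd1 and Hmgn3 had 13 UMIs each in all members, and DESeq2 gave adjusted p values of 0.0604 for Bicd1 and 0.0884 for Spock2. Ttn and Neb, which encode the giant muscle proteins titin and nebulin, had log2 ratios of 3.12 (edgeR adjusted p = 0.00034) and 3.49 (edgeR adjusted p = 0.00108). Ttn had 100.2, 176 and 20.4 CPM in members and 6.28, 15.9 and 4.45 CPM in Foxp3-zero cells. Dusp4, a phosphatase that acts on MAP kinases, had a log2 ratio of 2.99 (edgeR adjusted p = 0.012), and Sdc4, a syndecan, 3.40 (edgeR adjusted p = 0.00433). Pdlim4, Atp8b4 and St3gal6 were read in no member, which allows up to 7.10 CPM over the 422358 UMIs of Foxp3-positive cells (3 counts). Foxp3-zero cells had 115, 73 and 62 UMIs of these genes. In PPARg-/- tumour, WT tumour and WT healthy this was 46.1, 31.8 and 34.7 CPM of Pdlim4. Atp8b4 had 24.1, 21.9 and 24.9 CPM there, and St3gal6 24.1, 20.9 and 16.0 CPM. Vipr1, the receptor of vasoactive intestinal peptide, Sema4a, Ehd3 and Tdrp were the other low ones, with 2 to 7 UMIs in all members; none of these 4, nor Pdlim4, Atp8b4 or St3gal6, passed in DESeq2. Fn1, which is not a T cell gene, was also low, and it was abundant in free RNA of each library (1229 CPM in PPARg-/- tumour, 239 in WT tumour and 288 in WT healthy). Its UMIs in Foxp3-zero cells lay in 31, 11 and 9 cells of these libraries, with 22.7% in 1 cell. Without cells over 10000 UMIs Fn1 fell below the limit for testing.

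Cell cycle genes were read in a part of the members. In the proliferation list 5 of 16 genes tested were higher and none lower (median 1.79): Ccnb2, Cdk1, Ube2c, Mcm3 and H2afz, of which the first 3 drive mitosis. The list's median was 0.64 when thinned, with 3 of 9 genes tested higher. Without cells over 10000 UMIs the median was 0.68, with 3 of 10 genes tested higher. All of the 5 genes named but H2afz then fell below the limit for testing. Cells with at least 3 UMIs of 8 cycle genes were 1 of 26 members in PPARg-/- tumour (3.85%), 11 of 58 in WT tumour (19.0%, exact 95% interval 9.87 to 31.4) and 4 of 16 in WT healthy (7.27 to 52.4%). Among Foxp3-zero cells they were 7 of 304 (2.30%), 7 of 289 (2.42%) and 4 of 276 (1.45%). With each cell thinned to 1000 UMIs, at least 1 UMI of these genes was found in 2 of 26, 11 of 58 and 5 of 16 members, against 5.26%, 7.96% and 7.97% of Foxp3-zero cells. As counted, the intervals of the members and the Foxp3-zero cells did not overlap in either WT library and did in PPARg-/- tumour; after thinning they overlapped in all 3. Without cells over 10000 UMIs the cycling members were 1 of 25, 8 of 54 and 2 of 14, against 6 of 298, 4 of 282 and 2 of 271 Foxp3-zero cells.

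The Foxp3-positive cells were not uniform. Il1rl1, Itgae or Klrg1, surface markers of tissue regulatory T cells, were read in 5 of 26 members in PPARg-/- tumour, 27 of 58 in WT tumour and 6 of 16 in WT healthy. Within the WT tumour library, the 27 members with these genes were set beside the 31 without them (medians 2826 and 2911 UMIs) as a description. Those with them had more Tnfrsf4 (825 CPM, exact 95% interval 663 to 1014, against 237, 162 to 334), more Batf (211 CPM, 134 to 316, against 22.2, 4.58 to 64.9) and more Prdm1 (147 CPM, 83.8 to 238, against 14.8, 1.79 to 53.5). For Tnfrsf4, 1 cell with the markers held 38.5% of the UMIs of all WT tumour members, so this difference leans on that cell. Batf and Prdm1 (Blimp-1) are transcription factors of effector regulatory T cells. Gata3 was at 367 CPM in members with the tissue markers and 148 in members without them, Maf at 1118 and 466, Fgl2 at 431 and 170, Tnfrsf9 at 220 and 66.6, and Ctla4 at 706 and 415. In the opposite direction lay Ccr7 (9.16 and 155 CPM), Satb1 (27.5 and 207 CPM), Bcl2 (18.3 and 111 CPM), Klf2 (128 and 333 CPM) and S1pr1 (192 and 474 CPM), again with the marker-positive cells first. The intervals of these genes lay apart, except for Bcl2. The other libraries had few cells with the markers (5 and 6). Tnfrsf4, Maf, Fgl2, Gata3, Batf and Prdm1 were higher and Satb1, Bcl2 and S1pr1 lower with the markers there too by value, without a test. For Batf and Prdm1 this rests on 1 UMI each in PPARg-/- tumour members and on 4 and 7 UMIs in WT healthy members. Some of the other genes went the other way. Ctla4 was at 216 CPM with the markers and 571 without in PPARg-/- tumour, and at 421 and 766 CPM in WT healthy. In WT healthy, Klf2 was at 927 and 590 CPM and Ccr7 at 197 and 160 CPM, and Tnfrsf9 was read in no member with the markers in either library. In WT tumour, Ikzf2 was high on both sides of the split (1713 and 1273 CPM), and for Foxp3 (495 and 392 CPM), Tcf7 (73.3 and 126 CPM) and Nrp1 (192 and 237 CPM) the intervals overlapped. Lyz2, a macrophage gene, was at 467 CPM in WT tumour cells with the tissue markers and 9284 in those without them, and at 528 and 577 CPM without cells over 10000 UMIs; in PPARg-/- tumour it was at 6142 and 1435 CPM, and at 1329 and 1435 CPM without those cells. Without cells over 10000 UMIs, the WT tumour differences kept their direction, with Tnfrsf4 at 986 and 312 CPM, Ctla4 at 810 and 612 CPM and Klf2 at 93.9 and 439 CPM. The cell rich in Tnfrsf4 was not among those left out.

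The share of Foxp3-positive cells among T cells without Cd8 was highest in WT tumour. It was 26 of 919 in PPARg-/- tumour (2.83%, exact Clopper-Pearson 95% interval 1.86 to 4.12), 58 of 775 in WT tumour (7.48%, 5.73 to 9.57) and 16 of 620 in WT healthy (2.58%, 1.48 to 4.16). The WT tumour interval overlapped neither of the other two; each share is of 1 pool of 3 mice. With each cell thinned to 1000 UMIs the shares were 1.74% (0.998 to 2.81), 3.23% (2.10 to 4.73) and 1.29% (0.559 to 2.53), in the same order, and the intervals overlapped. A Foxp3 UMI remained in 16, 25 and 8 members. Cells that should lack Foxp3 set the background: 0 of 1267, 1 of 1162 and 0 of 1029 macrophages had a UMI, at median depths of 15989, 14501 and 12676 UMIs, and 0 of 152, 0 of 75 and 0 of 65 B cells. CD8 T cells had 4 of 609, 3 of 490 and 0 of 257, and free RNA held 1.65, 5.54 and 1.98 CPM of Foxp3.

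**Figure D4:**
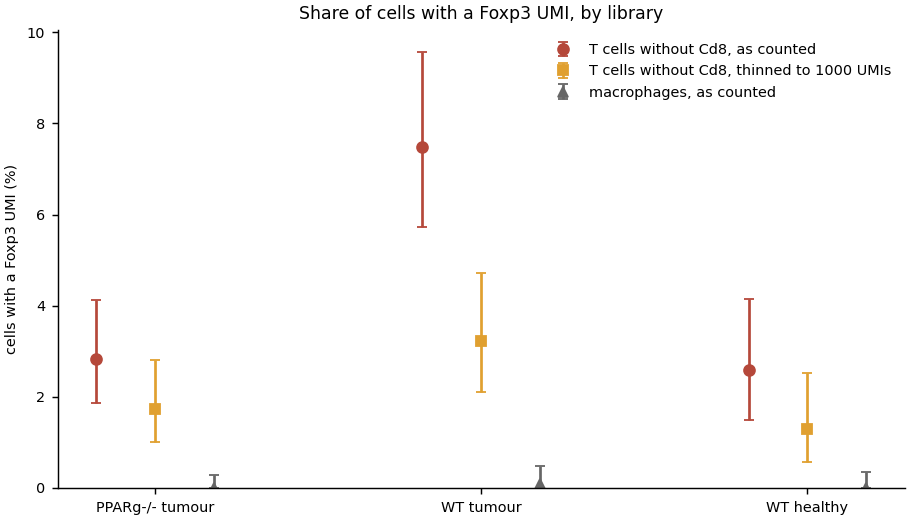
Share of cells with a Foxp3 UMI (y axis, percent) in each library, for T cells without Cd8 as counted, for the same cells thinned to 1000 UMIs, and for macrophages; bars are exact 95% binomial intervals. WT tumour lies at 7.48% as counted and 3.23% when thinned, above both other libraries, and macrophages lie near 0.

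The members of the WT tumour and WT healthy libraries were compared by a rule of size, a ratio of at least 1.5-fold whose exact 95% interval for counting error excludes 1, which is not a test. Of 2847 genes with at least 20 UMIs over both, 276 were higher (9.69%) and 194 lower (6.81%) in WT tumour. Of 9 resting genes measured 5 were lower and none higher (median log2 −0.94, against −0.39 for the same genes in Foxp3-zero cells). Klf2, a factor that keeps T cells recirculating, was at 242 CPM in WT tumour members and 712 in WT healthy members (log2 −1.56, −2.08 to −1.04), whereas in Foxp3-zero cells it was at 620.3 and 662 CPM (log2 −0.09). Satb1 (log2 −2.00), Tcf7 (−1.13), Lef1 (−1.37) and S1pr1 (−0.90) were lower too.

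Of 7 costimulatory receptors 4 were higher in WT tumour members than in WT healthy members and none lower. Tnfrsf9, encoding 4-1BB, a receptor of activated T cells, had 33 UMIs in WT tumour members and 1 in WT healthy members (135 and 10.2 CPM; log2 3.73, 1.15 to 9.08). Tnfrsf4 was at 499.6 and 132 CPM (log2 1.92, 1.09 to 2.87), but the same ratio stood in Foxp3-zero cells (log2 1.59). In WT tumour members 1 cell held 38.5% of the Tnfrsf4 UMIs. Icos and Tnfrsf1b were the other 2, the last no longer apart without cells over 10000 UMIs. Fgl2 was at 287 and 40.7 CPM (log2 2.82, 1.40 to 4.73), against a log2 of 0.16 in Foxp3-zero cells. Ikzf2 (log2 1.37) and S100a4 (2.01) were higher in WT tumour members and as much so in Foxp3-zero cells (1.65 and 1.94). Il2ra (log2 0.43, −0.31 to 1.23) and Nrp1 (0.61, −0.26 to 1.57) were not apart. Ctla4 was not apart either (log2 −0.24), but 1 WT healthy cell held 58.7% of its UMIs there, and without cells over 10000 UMIs it was higher in WT tumour (0.85). Of 15 proliferation genes 10 were lower and none higher in WT tumour, and H2afz, Stmn1 and Hmgb2 among them were higher there without those cells. Vim and Lgals1 changed sign in the same way (log2 −0.59 and −0.83 with these cells and 1.51 and 1.78 without).

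PPARg-/- tumour members were set against WT tumour members by the same rule. Of 2703 genes measured 107 were higher (3.96%) and 263 lower (9.73%) in PPARg-/- tumour. Both comparisons share the WT tumour library, so their ratios are not independent. Of 9 resting genes 4 were higher and none lower (median log2 0.94, against −0.03 in Foxp3-zero cells). Klf2 was at 714 CPM in PPARg-/- tumour members and 242 in WT tumour members (log2 1.56, 1.01 to 2.11; 0.07 in Foxp3-zero cells). Satb1 (1.18), Foxp1 (1.18) and Bcl2 (1.33) were the other 3, and Bcl2 was no longer apart without cells over 10000 UMIs (0.93).

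Of 15 tissue and effector genes 8 were lower in PPARg-/- tumour members than in WT tumour members and none higher, and of 15 activation and memory genes 11 were lower and 2 higher. S100a6 was at 326 CPM in PPARg-/- tumour members and 1552 in WT tumour members (log2 −2.25, −2.89 to −1.68), against 532 and 502 CPM in Foxp3-zero cells. Maf was at 200.3 and 758 CPM (log2 −1.92, −2.76 to −1.18; −0.05 in Foxp3-zero cells), and Vim at 401 and 1286 CPM (log2 −1.68; 0.24 in Foxp3-zero cells). For S100a6 and Maf the interval of the members did not reach the ratio in Foxp3-zero cells. Tnfrsf9 had 1 and 33 UMIs (log2 −3.43, −8.78 to −0.85), Tnfrsf18 was at 87.6 and 287 CPM (log2 −1.71), and Tnfrsf4 at 188 and 499.6 CPM (log2 −1.41; −1.79 in Foxp3-zero cells). For Tnfrsf4, 1 cell held 38.5% of the UMIs of the WT tumour members. Of 4 suppressive effectors Nt5e, Fgl2 and Lgals1 were lower. The proliferation list had 12 of 13 lower, Mki67 with 2 UMIs in PPARg-/- tumour members and 133 in WT tumour members. In WT tumour members 1 cell held over 25% of the UMIs of each of these 12 except Stmn1 and H2afz (29.3% for Mki67). The intervals for the share of cycling members overlapped, at 0.0973 to 19.6% in PPARg-/- tumour and 9.87 to 31.4% in WT tumour. Il2ra, Ctla4, Icos and Ikzf2 were not apart: Il2ra was at 263 and 274 CPM (log2 −0.06, −0.84 to 0.66), Ctla4 at 488 and 545 CPM (−0.16, −0.71 to 0.37), Icos at 313 and 303 CPM (0.05, −0.67 to 0.72, with 56.0% of the PPARg-/- tumour UMIs in 1 cell) and Ikzf2 at 1214 and 1470.0 CPM (−0.28, −0.61 to 0.05). Nr4a1, an immediate target of T cell receptor signals, was at 351 and 111 CPM (log2 1.66, 0.85 to 2.48, against −0.94 in Foxp3-zero cells). A single cell held 35.7% of its UMIs in PPARg-/- tumour members and 29.6% in WT tumour members. The genes with the highest ratios included Bzw2, Borcs8, Cir1, Grap2 and Znrf2 (1.68 to 2.14), and those with the lowest ratios, each on 1 UMI in PPARg-/- tumour members, included Cxcr4, Mast4, Txn2 and Kmt5a (−3.19 to −3.60).

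**Figure D5:**
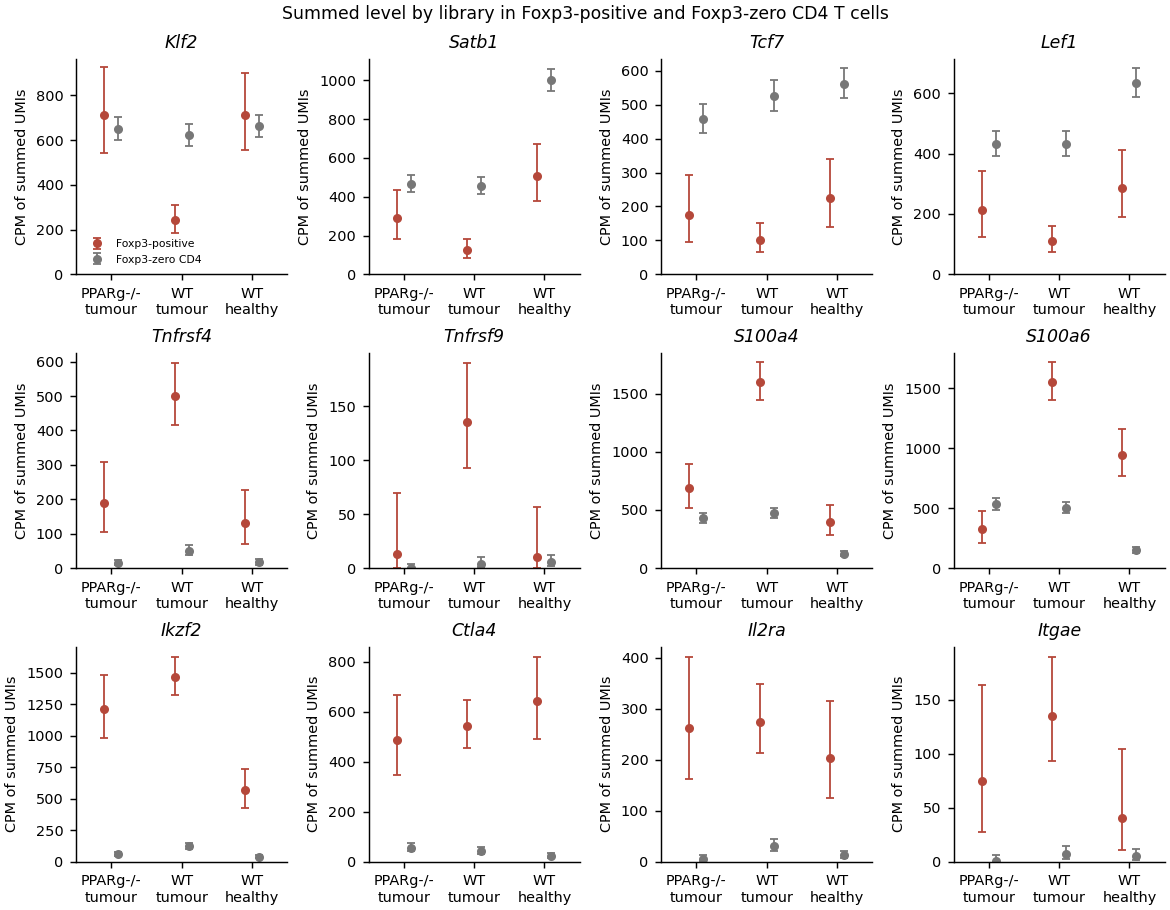
Level of 12 genes by library (CPM of summed UMIs; bars are exact 95% Poisson intervals for counting error), in Foxp3-positive cells and Foxp3-zero CD4 T cells. Klf2 lay lowest in the WT tumour members (242 CPM) with no such dip in Foxp3-zero cells, and Tnfrsf4, Tnfrsf9, S100a4 and S100a6 lay highest there.

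Markers of other cells were counted in the same sums. Macrophage markers (8 genes) summed to 3092 CPM in PPARg-/- tumour members, 7526 in WT tumour members and 275 in WT healthy members, with 2, 1 and 5 of them at 0, against 10873, 3116 and 1954 CPM in Foxp3-zero cells. In WT tumour 1 cell held 88.2% of the Lyz2 UMIs, and without cells over 10000 UMIs the sums were 1714, 820 and 393 CPM, against 1473, 1255 and 658 CPM. Natural killer markers had 1 UMI in all members, gamma-delta T cell markers 1, B cell markers 5 and neutrophil markers 5. Epithelial markers, mainly Sftpc, summed to 313, 397 and 173 CPM in members, against 310, 561 and 244 CPM. Endothelial markers, mainly Pecam1, summed to 150, 45.0 and 102 CPM, against 108, 109 and 128 CPM. Genes of the dissociation stress response were higher in WT healthy members (10216 CPM) than in PPARg-/- tumour (6035) and WT tumour members (6101), and in Foxp3-zero cells they had 4432, 4878 and 6693 CPM. The part of these signals in the differences between libraries was not tested.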

How the data were processed

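Lung cells of 3 pools of mice were measured by droplet-based 3' RNA sequencing. Raw UMI counts of 32285 genes were deposited by the authors for every barcode; Cell Ranger 6.0.1, Seurat 4.0.1 and mm10 are listed per the submitters' processing notes, but Cell Ranger 4 wrote the matrices per the file headers. A version 2 kit is named per the labels' protocols, although a barcode list has 6794880 entries.

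The rule for members and every gene list were chosen with earlier results of these data known, and the comparison of members with and without Il1rl1, Itgae or Klrg1 was chosen after their values were seen. Filters were applied per library. Counts were summed per library and class into 6 sums and tested in R 4.3.3 with edgeR 4.0.16 (TMM scaling, filterByExpr, quasi-likelihood test, library as block, Benjamini-Hochberg over all genes tested, threshold 0.05). The library is the block because both classes of a library come from the same 3 mice. The TMM factors lay at 1.08 to 1.13 for Foxp3-positive and 0.891 to 0.930 for Foxp3-zero sums, so log2 ratios are lower than ratios of the CPM printed beside them. The genes of the rule were not tested. Cells of 1 library are not replicates. With the library as block, p-values measure how far the ratio between the classes varied over the 3 pools, counting error included. Each pool is also a group of its own, so differences in that ratio between groups are part of this spread. On simulated sums with 200 changed genes over 7100 genes, 1 of 66 calls was false. These sums had the same relative spread for every gene and no single deep cells, so this share does not carry over to the calls in the data.

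Levels are CPM of the sums. Between libraries, ratios carry exact 95% intervals (conditional binomial) and shares exact binomial (Clopper-Pearson) intervals, for counting error only. Scrublet, through scanpy 1.11.5 at an expected rate of 6%, marked 2 of 100 members, which were kept. Genes named are the 5 markers, members of the lists by call and then by level, and the 12 highest and 12 lowest log2 ratios among calls (6 between libraries) with the same direction in every library and no cell over 25% of the UMIs of the higher class. Positions are from GENCODE vM21. Alternatives were DESeq2 1.42.0, median-of-ratios scaling, no filter, no block, each library left out, other limits for Cd4, Foxp3, UMIs and mitochondria, thinning, doublet removal, and, chosen after seeing the data, barcodes over 10000 UMIs or over 2% other-cell markers left out. A few genes, and a comparator that rests on one of them, are not reported here.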

Additional observations from a re-analysis of the deposited data

Results flagged for a closer look

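Among the listed and ranked genes, for 12 the Foxp3-positive cells lay above the Foxp3-zero CD4 T cells in one library and below them in another, each with an interval for counting error that excludes no difference. In 7 of them 1 cell held over 25% of the UMIs wherever the members were higher, and the other 5 are given here. The difference between the libraries was itself not tested, and each value is from 1 library. The intervals are for each gene alone, with no adjustment for the number of genes looked at. Runx1, a partner factor of Foxp3, had a log2 ratio of 0.69 in WT tumour and −0.96 in WT healthy. Ptpn6, the phosphatase SHP-1, had 0.70 in WT tumour and −2.01 in WT healthy, the last on 2 UMIs. S100a6 had −0.71 in PPARg-/- tumour and 1.63 in WT tumour, Crip1 −0.41 in PPARg-/- tumour and 0.50 in WT tumour, and Vim −0.68 in PPARg-/- tumour and 1.24 in WT tumour. For S100a6 and Vim the Foxp3-zero cells of both tumour libraries were at similar levels, 532 and 502 CPM of S100a6 and 642 and 545 CPM of Vim (PPARg-/- tumour, WT tumour). None of these 5 genes was called by edgeR over the 3 libraries together; without cells over 10000 UMIs Vim was (log2 0.73, adjusted p = 0.00222).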

How the results depend on the processing

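Limits: 100 cells from 3 pools give 422358 UMIs, groups rest on 1 library each, Foxp3 is missed in cells where it was not captured, and single deep cells weigh on sums. Of the 235 calls, none of those tested again had the other sign with another scaling, DESeq2 or no filter (235 tested), without the block (208), with a library left out (201 to 230) or without cells over 10000 UMIs (206); 2 of 181 did when thinned and 1 of 231 without barcodes rich in other markers. No paired alternative other than the library block applies: without the replicate block 63 genes were higher and 72 lower. For counts of calls (100 higher and 135 lower), DESeq2 gave 46 and 12, leaving out a library 51 to 115 and 30 to 100, Cd4 asked of neither class 212 and 227, Cd4 asked of both 60 higher, doublet removal 84 lower, and thinning 37 higher. The cause of each was not tested. Shares of Foxp3-positive cells (PPARg-/- tumour, WT tumour, WT healthy) were 1.74%, 3.23% and 1.29% when thinned and 1.31%, 3.23% and 1.29% at 2 or more Foxp3 UMIs; with Cd4 in the denominator WT healthy had 1.08%. Genes apart between WT tumour and WT healthy members were 165 higher and 125 lower at 40 UMIs, 179 higher at 5% mitochondrial UMIs, and 181 and 96 without cells over 10000 UMIs. Those between PPARg-/- tumour and WT tumour members were 57 and 151 at 40 UMIs, 143 lower at 5%, and 51 and 154 without those cells. List medians moved as follows. With no filter on low counts, costimulatory receptors 0.56 and helper genes −1.99. When thinned, costimulatory 0.61, inhibitory 0.24, chemokine −0.13 and proliferation 0.64. With Cd4 asked of both classes, inhibitory 0.13, transcription factors 0.086, resting −2.39, T cell receptor −0.51, interferon −0.38 and MHC class I −0.35. At 2 or more Foxp3 UMIs, resting −1.82, helper −0.30 and interferon −0.66; with Cd4 asked of neither, helper −1.11; at 5% mitochondrial UMIs, inhibitory 0.17; without cells over 10000 UMIs, resting −1.21 and proliferation 0.68. With a library left out, activation lay at 0.18 to 0.78, chemokine at 0.14 to 0.72, cytotoxicity at −2.76 to −1.50 and proliferation at 0.99 to 2.32.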
